A study of Mus musculus with 24 samples.

Results

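The genes described here encode the enzymes that make, recycle and use glutathione, the enzymes that remove superoxide and peroxides, and a pair of stress-induced enzymes, Nqo1 and Hmox1. They were taken by symbol alone: every annotated gene beginning with Gsta, Gstm, Gstt, Gsto, Gpx, Prdx, Sod, Txnrd or Gcl, together with Txn1, Txn2, Txnip, Txnl1, Cat, Gsr, Gss, Gstp1, Gstk1, Gstz1, Nqo1, Hmox1 and Srxn1. The array named 49 such genes, and 42 of them had a probe with a detection p-value under 0.05 on at least 3 of 24 arrays, among 11317 genes that passed the same filter. The 7 below it were Gclc, Gpx5, Gpx6, Gstm3, Gsto2, Gstt4 and Txn1, and Gpx4, Prdx5 and Prdx6 were not analysed here. The filter kept genes that only some groups detected, such as Gsta1 on 8 arrays, so counts over the 42 genes describe those genes and support no comparison.

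RNA came from triceps surae, the calf muscle group, of 6-month-old C57/Bl6 mice that were either MuRF1 knockout or wild type. The gene removed, Trim63, codes for MuRF1, which tags proteins of heart and skeletal muscle with ubiquitin. Denervated muscle was collected 14 or 3 days after a piece of the sciatic nerve was removed on 1 side, and control muscle came from littermates that had no operation, so nerve loss and surgery cannot be told apart. The 8 groups were denervated knockout, control knockout, denervated wild type and control wild type at each of day 14 and day 3, with 3 samples each. Whether the 3 samples of a group were separate mice is not stated, so the p-values reflect only how far these samples vary, which may be technical. Levels are log2 normalised probe intensities, changes are denervated minus control on that scale, and a gene was called at a limma adjusted p under 0.05 over all 11317 genes.

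Trim63 read 4.83 to 5.86 in the knockout samples and 9.05 to 11.37 in the wild type samples, so no library went against its genotype label, although where the probe lies relative to the deleted part is not given. Of 10 muscle fibre markers 9 were measured, all but Myh7. At day 3, denervated knockout replicates 2 and 3 detected 18434 and 18520 probes, against 17055 in replicate 1 and at most 16815 on the other day 3 arrays, so values without them are given beside most day 3 knockout calls that end without them. Leaving them out leaves 1 denervated knockout array at day 3, which is then assumed to vary like the other groups, so a call can also end because fewer samples are fitted. Detected probes also ran higher in denervated than control arrays elsewhere. Ranges were 18044 to 18755 against 17125 to 17882 in the knockout at day 14. In wild type they were 17682 to 18496 against 16875 to 17812 at day 14 and 16266 to 16815 against 15693 to 16058 at day 3. Detection thus partly followed denervation and, in controls, day. The RNA is from whole muscle, in which fewer cells of a type and less RNA per cell cannot be told apart.

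Glutathione is a tripeptide thiol made in a pair of steps by glutamate-cysteine ligase, whose regulatory subunit is Gclm, and glutathione synthetase, Gss; glutathione reductase, Gsr, returns the oxidised form with NADPH. Superoxide dismutases turn superoxide into hydrogen peroxide, and catalase, glutathione peroxidases and peroxiredoxins remove the peroxide, the last of these drawing electrons from thioredoxin and thioredoxin reductase. Many of these genes are targets of the transcription factor NRF2 (Nfe2l2), which KEAP1 holds low in unstressed cells and which acts through antioxidant response elements in DNA, where BACH1 opposes it. Denervated muscle is known to release more peroxide from its mitochondria.

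Gclm, Gsr, Cat, Gsta2, Hmox1 and Srxn1 were higher in all 4 denervation comparisons (both genotypes, both days), as were 6.76% of all genes. Gstk1 and Txnip were lower in all 4, as were 5.81% of all genes. Another 2 members, Nqo1 and Gstm2, were called in opposite directions at the 2 days. Of all genes 3.27% were called higher in some comparisons and lower in others. The 5 members called in none were Gpx2, Gpx3, Gstt1, Gstz1 and Txnrd2, against 30.6% of all genes. The map of changes shows every member in every denervation comparison.

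**Figure D1:**
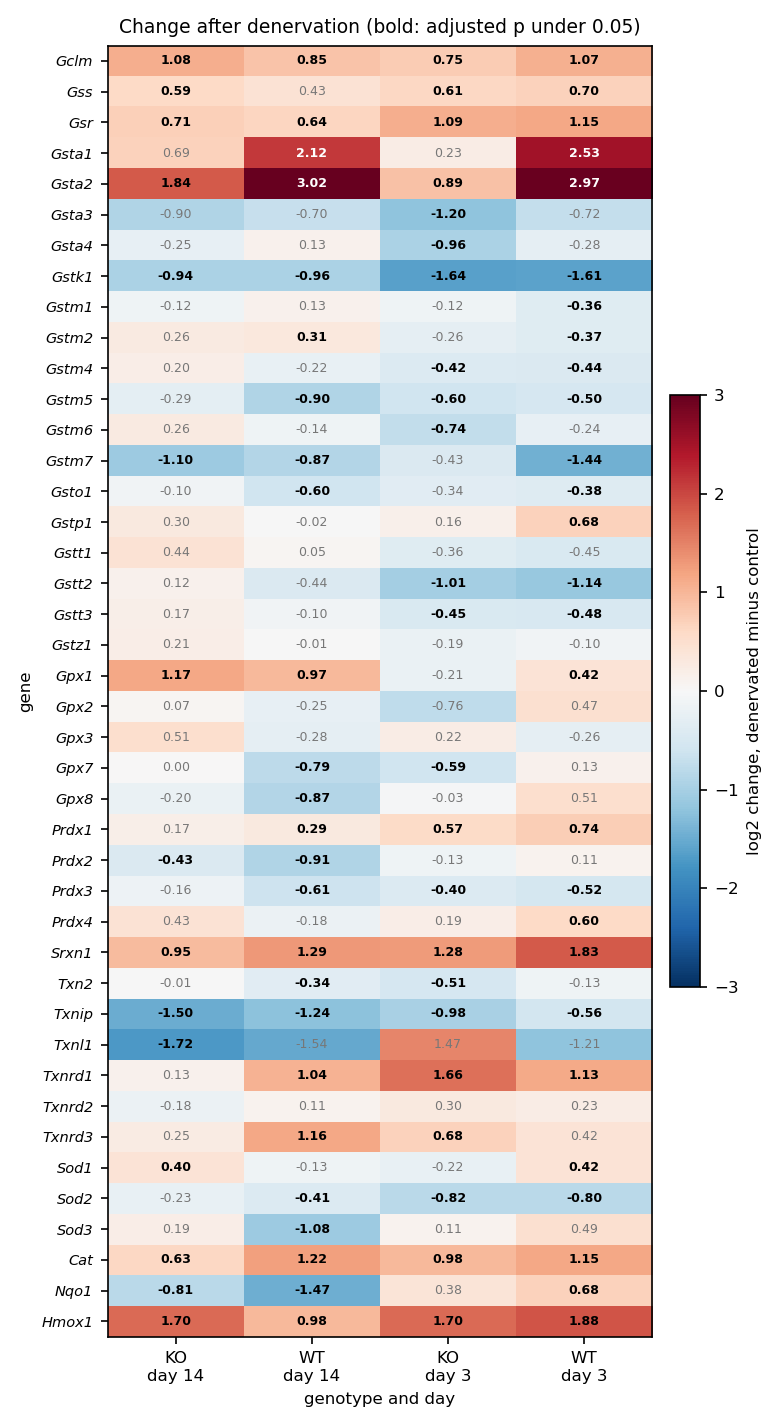
Log2 change after denervation (denervated minus control) of each of the 42 genes, in rows ordered by role, for knockout and wild type at day 14 and day 3 in columns, with bold numbers where the adjusted p was under 0.05. Gclm, Gsr, Cat, Gsta2, Hmox1 and Srxn1 are bold and red across all 4 columns, Gstk1 and Txnip bold and blue, and Gsta1 reaches 2.53 in wild type at day 3 against 0.23 in the knockout.

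At day 14, 15 of 42 members were called in the knockout, 9 higher and 6 lower, against a background of 36.7% of all genes (19% higher, 17.7% lower). In wild type 25 were called, 12 higher and 13 lower, against 41.5% (22.9% and 18.6%). At day 3, 23 were called in the knockout, 10 higher and 13 lower, against 35.8% (20.2% and 15.6%), and 27 in wild type, 15 higher and 12 lower, against 37.5% (20.0% and 17.5%). The members' median change was 0.17 and -0.14 at day 14 (knockout and wild type) and -0.16 and 0.12 at day 3, or 0.15, -0.14, -0.13 and 0.12 with undetected genes at their bound, while the median of all genes lay between 0.01 and 0.05. The balance of directions depended on the scaling. Centring each array on its median in place of quantile normalization moved the median of all genes to -0.02 in the knockout and 0.12 in wild type at day 14, and to 0.45 and 0.19 at day 3. The member calls were then 7 higher and 7 lower in the knockout and 10 and 12 in wild type at day 14, and 18 and 3, and 20 and 4, at day 3. Without the day 3 denervated knockout replicates 2 and 3 the knockout count at day 3 was 9.

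Markers of other cell types also changed, by list. Of 19 macrophage and leukocyte markers 14 were measured, all but Ptprc, Cd68, Itgam, Csf1r and Cd163. At day 14, 12 of the 14 rose in knockout muscle and 4 in wild type. At day 3, 3 rose in knockout muscle and all 14 in wild type. Their summed linear intensity was 19200 to 22400 in denervated knockout against 6270 to 7220 in control knockout at day 14, and 11400 to 20000 against 7510 to 9660 in wild type. At day 3 it was 19300 to 37600 in denervated against 10000 to 18800 in control knockout, and 32700 to 39100 against 8750 to 9320 in wild type. A difference between the genotypes' responses was called for 2 of these markers at day 14 and none at day 3. Such a difference was called for 12.5% and 1.08% of all genes. Of 10 endothelial markers, all measured, 1 rose and 7 fell in the knockout and none and 6 in wild type at day 14, and 1 and 1, and none and 6, at day 3. Of 9 adipocyte markers 7 were measured, none of which rose, and 2, 5, 4 and 4 fell in the knockout and wild type at day 14 and in the knockout and wild type at day 3. In the same order, of 9 measured muscle fibre markers 1, 1, none and none rose and 3, 2, 1 and 5 fell, of 8 measured fibroblast markers none, none, 2 and 2 rose and 1, 3, 1 and 1 fell, of 4 measured neutrophil markers 3, 1, 1 and 1 rose, and of 3 measured Schwann cell markers 1, none, 1 and none rose and 2 fell in each. The part of any of these cells in any change of the family was not tested.

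Promoter windows were compared for letters shared near the start of the genes. RefSeq windows (build GRCm38.p6) matched 36 of the 42 genes, and the 250 bases before each start site were searched on both strands for the antioxidant response element core TGACNNNGC. It was found for 7 of the 36 genes (Gclm, Prdx1, Txnrd1, Gsta3, Gstm5, Gstm7 and Sod1), of which Gstm5 and Gstm7 were each called lower in 3 denervation comparisons, and in 15.6% of the 45 member windows, against 11.6% of 11664 windows of all measured genes. A related element bound by NRF2 with small MAF proteins, TGAGTCAGC, was added after the first search. It was in the windows of 2 members, Srxn1 and Gstp1, and in 0.317% of windows of measured genes; no window held both. The windows of 4 genes that rose in at least 3 denervation comparisons and hold a match are printed first, then those of Gsta1 and Gsta2, whose response differed by genotype and which hold none, with matches in capitals. The windows of Cat, Gss and Gpx1, which also rose in at least 3 comparisons, held no match, and no window of Hmox1 or Gsr was used.
Gclm, chr3:122245307-122245556, plus strand: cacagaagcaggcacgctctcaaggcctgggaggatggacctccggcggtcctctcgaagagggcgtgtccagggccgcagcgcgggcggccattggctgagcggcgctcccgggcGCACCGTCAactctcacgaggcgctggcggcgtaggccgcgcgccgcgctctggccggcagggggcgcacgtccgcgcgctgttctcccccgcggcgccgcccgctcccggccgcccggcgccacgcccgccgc
Srxn1, chr2:152105274-152105523, plus strand: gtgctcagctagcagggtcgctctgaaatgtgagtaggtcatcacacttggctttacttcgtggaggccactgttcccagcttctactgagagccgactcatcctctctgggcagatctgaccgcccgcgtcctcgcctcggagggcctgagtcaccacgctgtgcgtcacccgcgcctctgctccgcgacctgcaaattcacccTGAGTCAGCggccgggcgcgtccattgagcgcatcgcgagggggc
Prdx1, chr4:116685349-116685598, plus strand: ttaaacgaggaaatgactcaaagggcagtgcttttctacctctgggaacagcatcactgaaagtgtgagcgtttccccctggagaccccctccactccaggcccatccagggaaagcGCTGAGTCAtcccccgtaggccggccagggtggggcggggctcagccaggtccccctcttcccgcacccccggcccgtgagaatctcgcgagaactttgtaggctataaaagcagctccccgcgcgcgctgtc
Txnrd1, chr10:82858956-82859205, plus strand: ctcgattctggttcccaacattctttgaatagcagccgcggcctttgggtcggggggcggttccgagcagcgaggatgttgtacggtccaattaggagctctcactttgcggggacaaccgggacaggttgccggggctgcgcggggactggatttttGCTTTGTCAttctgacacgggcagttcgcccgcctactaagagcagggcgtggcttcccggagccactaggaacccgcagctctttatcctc
Gsta1, chr9:78230419-78230668, plus strand: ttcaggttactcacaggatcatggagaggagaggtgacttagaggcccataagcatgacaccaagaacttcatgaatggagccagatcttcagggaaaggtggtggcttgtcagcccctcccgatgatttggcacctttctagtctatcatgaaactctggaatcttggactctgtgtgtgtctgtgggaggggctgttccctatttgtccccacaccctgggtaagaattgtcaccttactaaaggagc
Gsta2, chr9:78347146-78347395, minus strand: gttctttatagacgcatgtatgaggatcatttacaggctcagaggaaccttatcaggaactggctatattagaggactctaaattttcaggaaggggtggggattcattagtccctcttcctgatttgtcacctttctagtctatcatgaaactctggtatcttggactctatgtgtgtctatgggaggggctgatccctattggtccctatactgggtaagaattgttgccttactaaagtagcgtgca
A match is a run of letters, not a measured binding site, and Txnrd1 has 2 further windows without one.

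Of the genes of glutathione synthesis and recycling, Gclm and Gsr rose in all 4 comparisons. Gclm read 9.60, 9.87 and 9.92 in denervated knockout against 8.87, 8.71 and 8.58 in control knockout at day 14, and 9.69, 9.53 and 9.64 against 8.67, 8.93 and 8.73 in wild type. At day 3 Gclm read 9.48, 9.69 and 9.78 in denervated against 8.73, 9.09 and 8.86 in control knockout, and 10.41, 10.04 and 10.14 against 9.04, 9.13 and 9.22 in wild type. No denervated sample overlapped its controls. The rises were 1.08 ± 0.13 and 0.85 ± 0.13 at day 14 (knockout and wild type, log2 ± SE) and 0.75 ± 0.13 and 1.07 ± 0.13 at day 3, with adjusted p of 2e-06, 3.1e-05, 0.000169 and 1.96e-06. The fitted call held in every alternative run.

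Gsr, the reductase that regenerates glutathione, read 9.42, 9.07 and 9.67 in denervated knockout against 8.61, 8.97 and 8.44 in control knockout at day 14, and 9.51, 9.20 and 9.01 against 8.61, 8.85 and 8.32 in wild type. At day 3 Gsr read 9.06, 9.60 and 9.83 against 8.50, 7.95 and 8.75 in the knockout, and 9.81, 9.31 and 9.37 against 8.11, 8.3 and 8.63 in wild type. Denervated samples stood clear of controls in both genotypes. At day 14 the rises were 0.71 and 0.64 (knockout and wild type, adjusted p = 0.0224 and 0.034), and those calls were lost in 6 and 5 of 15 alternatives. At day 3 they were 1.09 ± 0.24 and 1.15 ± 0.24 (adjusted p = 0.00108 and 0.000593). Without the outlying knockout replicates 2 and 3 the day 3 knockout rise of Gsr was 0.66 and was not called (adjusted p = 0.179). Gss, the synthetase, was dim (detected on 17 arrays) and rose by 0.59 in the knockout at day 14 and by 0.61 in the knockout at day 3. In wild type it rose at least 1.17-fold at day 3, a bound because no control array detected it there. Its 0.43 in wild type at day 14 did not pass (adjusted p = 0.135). Without the outlying arrays the day 3 knockout change was 0.53 and was not called (adjusted p = 0.292). The 2 dimmer Gss probes gave changes between -0.30 and 0.22, none called.

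Gsta1 and Gsta2, alpha-class glutathione transferases that conjugate electrophiles and reduce lipid peroxides, were lower in denervated knockout than in denervated wild type muscle at both days. Gsta1 read 4.98, 5.72 and 5.75 in denervated knockout at day 14 against 4.68, 4.77 and 4.94 in its controls, and 8.08, 6.52 and 6.53 in denervated wild type against 5.05, 4.87 and 4.85. At day 3 Gsta1 read 5.19, 4.99 and 5 in denervated against 4.75, 4.97 and 4.78 in control knockout, and 7.48, 7.40 and 7.78 against 5.04, 5.11 and 4.91 in wild type. Every denervated wild type sample lay above every knockout sample, and none of the 12 control samples detected the probe.

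In the knockout the Gsta1 changes of 0.69 at day 14 and 0.23 at day 3 did not pass (adjusted p = 0.0588 and 0.567). In wild type Gsta1 rose at least 2.65-fold at day 14 and at least 3.31-fold at day 3 (adjusted p = 3.11e-06 and 3.36e-07), bounds set by the dimmest detected signal because no control array measured it. In denervated muscle at day 14 Gsta1 was 2.94-fold lower in knockout than in wild type (-1.56 ± 0.28 log2, adjusted p = 0.00179). Only 2 of 3 knockout arrays detected it there, so this fold rests on signal near background. At day 3 Gsta1 was at least 3.97-fold lower (adjusted p = 2.09e-05). None of the 6 genotype calls in denervated muscle at day 14, Gsta1, Gsta2 and Gsta4 among them, held in all 15 alternatives. The difference between the genotypes' responses, knockout minus wild type, was -1.43 ± 0.40 at day 14 (adjusted p = 0.0234) and -2.31 ± 0.40 at day 3 (adjusted p = 0.00665); it compares groups that were mostly at background, so its size is not a fold.

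Gsta2 also rose more in wild type than in the knockout, at a higher signal. Unlike Gsta1, it was also called higher in the knockout at both days. It read 6.41, 7.26 and 6.81 in denervated knockout at day 14 against 4.93, 5.01 and 5.02 in its controls, and 8.92, 7.67 and 7.73 in denervated wild type against 5.64, 4.93 and 4.68. At day 3 Gsta2 read 5.75, 5.97 and 5.72 in denervated against 4.94, 5.14 and 4.69 in control knockout, and 7.88, 8.06 and 8.22 against 5.18, 5.16 and 4.91 in wild type. All 4 sets of denervated samples stood above their controls, and wild type stood above knockout at both days. It rose at least 2.3-fold in the knockout at day 14, by 3.02 log2 in wild type at day 14 (1 of 3 controls detected it), by 0.89 in the knockout at day 3 and at least 4.67-fold in wild type at day 3, with adjusted p of 1.84e-05, 1.6e-08, 0.0151 and 2.65e-08. No day 3 knockout control detected Gsta2 and the signal is too low to bound a fold there, and that call was lost in 5 of 16 alternatives, among them the one without replicates 2 and 3 (0.82, adjusted p = 0.185).

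The genotype difference in the Gsta2 response was -1.18 ± 0.39 at day 14 (adjusted p = 0.0493) and -2.08 ± 0.39 at day 3 (adjusted p = 0.012). The day 14 call held in 8 of 21 alternatives. At day 3, 2 of 42 members were called in this interaction, both lower in the knockout, against a background of 1.08% of all genes (0.645% higher, 0.433% lower). Without the day 3 denervated knockout replicates 2 and 3, limma called no member, the difference being -2.17 for Gsta1 and -2.14 for Gsta2 (adjusted p = 0.145 for both) and 6 members having an unadjusted p under 0.05, although the direct comparison of denervated knockout with denervated wild type at day 3 held for both in all 16 alternatives. A second Gsta2 probe gave 1.70 and 2.61 at day 14 (knockout and wild type) and 0.89 and 2.97 at day 3. Gsta1 and Gsta2 are near-identical copies, so a probe of either may also bind transcripts of the other.

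**Figure D2:**
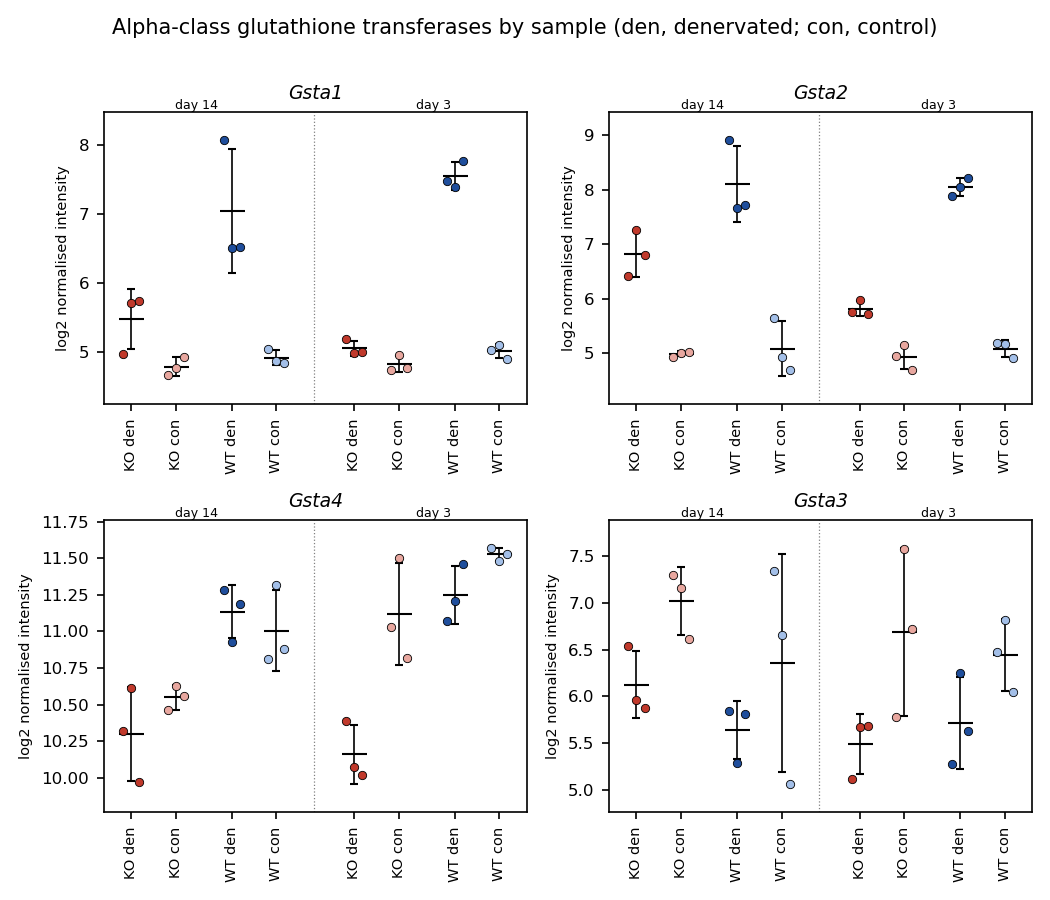
Log2 normalised intensity of 4 alpha-class glutathione transferases in each sample (points, n = 3 per group), with the mean and SD as bars, for knockout (KO, red) and wild type (WT, blue), denervated (den, dark) left of control (con, light), at day 14 and day 3. Denervated wild type samples of Gsta1 lie between 6.52 and 8.08 and denervated knockout samples between 4.98 and 5.75, and Gsta4 in denervated muscle is lower in knockout at both days.

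Gsta4, which conjugates the lipid peroxidation product 4-hydroxynonenal, was also lower in denervated knockout muscle. In denervated muscle at day 14 it read 10.32, 10.61 and 9.97 in knockout against 11.28, 10.93 and 11.19 in wild type. At day 3 Gsta4 read 10.39, 10.07 and 10.02 against 11.07, 11.21 and 11.46. The genotypes did not overlap at either day, and the differences were -0.83 ± 0.18 and -1.09 ± 0.18 (adjusted p = 0.00941 and 0.00176). Without denervation, days pooled, it was -0.43 ± 0.13 (adjusted p = 0.067), and the interaction did not pass (adjusted p = 0.367 at day 14 and 0.191 at day 3). Its day 3 genotype difference was -0.86 and not called without the outlying replicates 2 and 3 (adjusted p = 0.319). Of the 4 denervation comparisons Gsta4 was called in the knockout at day 3, where it fell by 0.96, or by 0.73 and not called without those replicates (adjusted p = 0.0634). Gsta3, another alpha-class enzyme, read 5.12, 5.67 and 5.68 in denervated against 5.78, 7.57 and 6.72 in control knockout at day 3, a change of -1.20 ± 0.45 that passed (adjusted p = 0.0416) and was lost in 11 of 16 alternatives, among them the one without those replicates (-1.57, adjusted p = 0.117).

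Gstk1, the kappa-class transferase of mitochondria and peroxisomes, fell in both genotypes at both days. It read 12.15, 12.42 and 12.07 in denervated knockout against 13.07, 13.04 and 13.35 in control knockout at day 14, and 12.21, 12.11 and 12.24 against 13.15, 13.13 and 13.17 in wild type. At day 3 Gstk1 read 12.01, 11.61 and 11.38 against 13.48, 13.36 and 13.06 in the knockout, and 11.74, 11.85 and 11.89 against 13.52, 13.39 and 13.39 in wild type. The groups were far apart in each comparison. Changes were -0.94 ± 0.15 and -0.96 ± 0.15 at day 14 and -1.64 ± 0.15 and -1.61 ± 0.15 at day 3 (knockout and wild type, adjusted p of at most 3.32e-05), and all 4 calls held in every alternative. The interaction with genotype was 0.02 at day 14 and -0.03 at day 3, each with an SE of 0.21 and not called.

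Mu-class transferases, which conjugate a broad range of electrophiles and share much of their sequence so that probes may bind more than 1 of them, were mostly lower where called. Gstm5 read 11.87, 12.32 and 12.19 in denervated against 12.45, 12.38 and 12.43 in control knockout at day 14, and 11.99, 11.72 and 11.70 against 12.68, 12.86 and 12.57 in wild type. Denervated samples were lower without overlap in both genotypes. The change of -0.29 in the knockout did not pass (adjusted p = 0.0922), that of -0.90 ± 0.13 in wild type did (adjusted p = 1.25e-05), and the interaction of 0.61 ± 0.19 was called (adjusted p = 0.0377), although 12 of 21 alternatives lost it. At day 3 Gstm5 fell by 0.60 in the knockout, or changed by -0.42 and was not called without the outlying arrays (adjusted p = 0.123), and by 0.50 in wild type, a call lost with median centring.

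Gstm7 was dim and read 5.23, 6.12 and 5.11 in denervated against 6.43, 6.75 and 6.58 in control knockout at day 14, and 5.09, 4.90 and 4.85 against 6.48, 6.18 and 6.5 in wild type at day 3. Both sets stood apart. It fell by 1.10 in the first comparison (adjusted p = 0.00706, 1 of 3 denervated arrays detecting it) and at least 1.56-fold in the second (adjusted p = 0.000748), since no denervated array detected it there. In wild type at day 14 it fell by 0.87 with overlapping samples, and at day 3 no knockout array of either group measured it.

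Gstm2, the most intense mu-class probe, read 14.25, 14.23 and 14.42 in denervated against 13.92, 14.11 and 13.94 in control wild type at day 14, and 13.60, 13.78 and 13.62 against 14.11, 14.05 and 13.94 at day 3. The samples stood apart at both days, higher at day 14 and lower at day 3. The change was 0.31 at day 14 and -0.37 at day 3, and its difference between the days was 0.52 ± 0.14 in the knockout (adjusted p = 0.0171, or 0.42 with an adjusted p of 0.197 without the outlying arrays) and 0.68 ± 0.14 in wild type (adjusted p = 0.00364). A further Gstm2 probe gave -0.48 in wild type at day 14, so probes disagreed there.

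Among the other mu-class members, Gstm1 in denervated muscle at day 14 read 12.72, 12.84 and 12.77 in knockout against 13.27, 13.12 and 13.21 in wild type, a difference of -0.42 ± 0.11 (adjusted p = 0.0226) that turned to 0.23 with the mean of its probes. In wild type it fell by 0.36 at day 3. Gstm4 at day 3 read 7.81, 7.84 and 7.74 in denervated against 8.20, 8.34 and 8.10 in control knockout, without overlap, and fell by 0.42 in the knockout and 0.44 in wild type. Without the outlying arrays its knockout change was -0.41 and was not called (adjusted p = 0.165), and median centring turned it to 0.22. Gstm6 read 11.21, 10.10 and 10.78 in denervated against 11.35, 11.41 and 11.54 in control knockout at day 3, a fall of 0.74 (adjusted p = 0.00459), against a change of -0.23 that was not called without the outlying arrays (adjusted p = 0.455). Dimmer Gstm6 probes gave rises of 1.49 and 1.01 in the knockout at day 14, where the brightest gave 0.26.

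Theta-class Gstt2 did not pass at day 14, with 0.12 in the knockout and -0.44 in wild type. At day 3 Gstt2 read 7.76, 7.34 and 7.38 in denervated against 8.36, 8.76 and 8.39 in control knockout, and 7.3, 7.51 and 7.51 against 8.37, 8.69 and 8.66 in wild type. It fell without overlap by 1.01 and 1.14 (adjusted p = 0.000231 and 4.91e-05), the knockout change being -0.74 and not called without the outlying arrays (adjusted p = 0.0586). Gstt2 in control muscle itself was 1.30 lower at day 14 than at day 3 (adjusted p = 8.82e-07), a difference that held in all 21 alternatives. Gstt3 at day 3 read 9.80, 9.58 and 9.27 in denervated against 9.87, 10.19 and 9.93 in control knockout, without overlap, and fell by 0.45 in the knockout and 0.48 in wild type. Its knockout change was -0.19 and not called without the outlying arrays (adjusted p = 0.469), and 0.20 with median centring. Gstt1 was called in no denervation comparison. The pi-class Gstp1, 1 of the brightest members, read 14.63, 15.07 and 14.99 in denervated against 13.98, 14.26 and 14.39 in control wild type at day 3 and rose by 0.68 ± 0.16 (adjusted p = 0.00154); in the knockout at day 3 it changed by 0.16 (adjusted p = 0.455). Omega-class Gsto1 fell by 0.60 in wild type at day 14 and by 0.38 at day 3, and zeta-class Gstz1 stayed between -0.19 and 0.21.

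Of the glutathione peroxidases, Gpx1, the abundant cytosolic and mitochondrial enzyme, rose at day 14. It read 13.60, 13.63 and 13.65 in denervated against 12.45, 12.38 and 12.55 in control knockout, and 13.68, 13.77 and 14.08 against 13.02, 12.86 and 12.75 in wild type. At day 3 Gpx1 read 13.18, 12.67 and 12.44 against 12.84, 13.22 and 12.86 in the knockout, and 13.12, 13.28 and 13.41 against 12.96, 12.76 and 12.81 in wild type. Samples stood apart in all but the day 3 knockout, where they overlapped.

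The Gpx1 changes were 1.17 ± 0.16 and 0.97 ± 0.16 at day 14 (knockout and wild type, adjusted p = 6.44e-06 and 4.83e-05) and -0.21 and 0.42 at day 3 (adjusted p = 0.337 and 0.0411), the last of them lost in 6 of 15 alternatives. Its response grew between the days by 1.38 ± 0.23 in the knockout (adjusted p = 0.000645), a call that held in all 22 alternatives and the only 1 of 13 day by denervation calls in the knockout that did. Gpx7 and Gpx8, peroxidases of the endoplasmic reticulum, read 8.31, 8.38 and 8.60 and 8.19, 8.55 and 8.64 in denervated wild type at day 14, against 9.40, 9.09 and 9.16 and 9.28, 9.55 and 9.16 in its controls. They fell there by 0.79 and 0.87, and their wild type responses differed between the days by -0.92 and -1.38 (adjusted p = 0.031 and 0.0166). In the knockout at day 14 Gpx7 and Gpx8 changed by 0 and -0.20, neither called. Their genotype interactions at day 14 did not pass (adjusted p = 0.0672 and 0.251). At day 3 Gpx7 changed by -0.59 in the knockout (adjusted p = 0.024), or by -0.03 without the outlying arrays. Gpx3, the secreted plasma enzyme, and Gpx2, found mainly in gut, were called in none.

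The peroxiredoxins moved in different directions. Prdx1, a cytosolic peroxiredoxin and NRF2 target, changed by 0.17 in the knockout at day 14, which did not pass, and rose by 0.29 in wild type. At day 3 Prdx1 read 15, 14.93 and 14.85 in denervated against 14.34, 14.35 and 14.38 in control knockout, and 15.22, 15.29 and 15.17 against 14.46, 14.55 and 14.45 in wild type. It stood apart in both genotypes and rose by 0.57 and 0.74 (SE 0.09, adjusted p = 8.12e-05 and 2.34e-06). The response was smaller at day 14 than at day 3 by 0.40 in the knockout and 0.46 in wild type (adjusted p = 0.0412 and 0.0267), the knockout difference being -0.47 and not called without the outlying arrays (adjusted p = 0.122).

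Prdx2, also cytosolic and abundant in red cells, read 9.04, 8.79 and 8.85 in denervated against 9.34, 9.36 and 9.26 in control knockout at day 14, and 8.91, 8.92 and 8.95 against 9.67, 9.95 and 9.90 in wild type. The groups stood apart and it fell by 0.43 and 0.91 (adjusted p = 0.00502 and 1.35e-06). At day 3 Prdx2 changed by -0.13 and 0.11, neither called, and in wild type the response differed between the days by -1.03 ± 0.16 (adjusted p = 0.000268). The genotype interaction at day 14 did not pass (0.49, adjusted p = 0.0507). A second Prdx2 probe gave 0.00 in the knockout and -0.37 in wild type at day 14, neither called. None of 5 red cell markers measured was called in any denervation comparison, and the part of red cells in the Prdx2 change was not tested. Mitochondrial Prdx3 fell by 0.61 in wild type at day 14, 0.40 in the knockout at day 3 and 0.52 in wild type at day 3, and changed by -0.16 in the knockout at day 14 (adjusted p = 0.377). Its day 3 knockout change was -0.28 and not called without the outlying arrays (adjusted p = 0.351), and 0.01 with median centring. Prdx4 of the endoplasmic reticulum rose by 0.60 in wild type at day 3.

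Srxn1, sulfiredoxin, which repairs overoxidised peroxiredoxins, rose in all 4 comparisons. It read 9.96, 10.30 and 9.82 in denervated against 9.42, 8.95 and 8.87 in control knockout at day 14, and 10.81, 10.52 and 10.62 against 9.27, 9.42 and 9.38 in wild type. At day 3 Srxn1 read 10.39, 10.62 and 11.02 against 9.33, 9.54 and 9.32 in the knockout, and 11.39, 10.94 and 11.25 against 9.42, 9.21 and 9.46 in wild type. No denervated sample fell among controls. Rises were 0.95 and 1.29 at day 14 and 1.28 and 1.83 at day 3 (knockout and wild type, SE 0.17, adjusted p between 4.22e-08 and 0.000203), and all held in every alternative. In denervated muscle at day 14 it was 0.62 lower in knockout than in wild type (adjusted p = 0.0351, lost in 8 of 15 alternatives). The other 2 Srxn1 probes also rose in all 4 comparisons, by 2.17 and 1.89 in the knockout and 2.69 and 2.64 in wild type at day 3.

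Txnrd1, the cytosolic thioredoxin reductase, read 6.34, 6.64 and 6.81 in denervated against 6.60, 6.24 and 6.55 in control knockout at day 14, and 7.53, 6.95 and 7.29 against 6.16, 5.99 and 6.49 in wild type. At day 3 Txnrd1 read 6.77, 7.65 and 7.80 against 5.73, 5.87 and 5.63 in the knockout, and 7.41, 7.45 and 7.64 against 6.21, 6.56 and 6.36 in wild type. Denervated samples were higher without overlap except in the knockout at day 14. At day 14 it changed by 0.13 in the knockout (adjusted p = 0.667) and rose by 1.04 in wild type (adjusted p = 0.000538). At day 3 Txnrd1 rose by 1.66 and 1.13 (adjusted p = 4.18e-06 and 0.00029). Only 1 of 3 knockout control arrays detected it at day 3. The knockout rise and its difference between the days therefore rest on a reference near background. Without the outlying arrays the knockout rise of Txnrd1 was 1.02. The genotype interaction at day 14 was -0.90 ± 0.31 and did not pass (adjusted p = 0.0561), so a difference between genotypes was not shown.

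The knockout response of Txnrd1 was smaller at day 14 than at day 3 by 1.53 ± 0.31 (adjusted p = 0.0024), while without the outlying arrays the difference was -0.89 and not called (adjusted p = 0.117). Txnrd3, a testis-enriched thioredoxin and glutathione reductase, changed by 0.25 in the knockout at day 14, which did not pass. In wild type it read 8.35, 8.20 and 8.31 in denervated against 7.59, 6.99 and 6.79 in control muscle and rose by 1.16 ± 0.22 (adjusted p = 0.00021). The genotype interaction of Txnrd3 at day 14 was -0.91 and did not pass (adjusted p = 0.0586). At day 3 Txnrd3 rose by 0.68 in the knockout (adjusted p = 0.0195), or by 0.38 without the outlying arrays. Its day 3 change of 0.42 in wild type did not pass (adjusted p = 0.14). Mitochondrial Txnrd2 was not called with its brightest probe, while its dimmer probes gave 1.10 and 0.59 in the knockout and 1.11 and -0.53 in wild type at day 14. Mitochondrial thioredoxin Txn2 fell by 0.51 in the knockout at day 3 and by 0.34 in wild type at day 14, calls lost in 3 and 10 alternatives and the first turning to 0.10 with median centring and being -0.46 without the outlying arrays (adjusted p = 0.114).

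Txnip, which binds and inhibits thioredoxin and restrains glucose uptake, fell in all 4 comparisons. It read 13.88, 12.93 and 13.06 in denervated against 14.85, 14.70 and 14.80 in control knockout, and 13.04, 13.40 and 12.88 against 14.44, 14.47 and 14.11 in wild type. At day 3 Txnip read 13.08, 13.30 and 13.41 against 14.17, 13.96 and 14.58 in the knockout, and 13.55, 13.53 and 13.40 against 14.14, 13.88 and 14.14 in wild type. All denervated samples lay below their controls. It changed by -1.5 and -1.24 at day 14 and by -0.98 and -0.56 at day 3 (SE 0.20, adjusted p = 6.26e-06, 4.71e-05, 0.000767 and 0.0353), the wild type day 3 call being lost in 6 of 15 alternatives. The day 14 response minus the day 3 response did not pass, at -0.52 in the knockout and -0.68 in wild type (adjusted p = 0.204 and 0.124). Txnl1, a thioredoxin-like protein of the proteasome, read 6.10, 6.98 and 6.16 in denervated against 8.07, 8.19 and 8.16 in control knockout at day 14 and fell by 1.72, but within wild type at day 3 its samples ran from 4.79 to 6.86 in denervated and from 5.73 to 8.09 in control muscle.

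Of the 3 superoxide dismutases, mitochondrial Sod2 fell in all but the day 14 knockout comparison. It read 12.92, 13.07 and 13.17 in denervated against 13.13, 13.34 and 13.39 in control knockout at day 14, and 12.97, 12.98 and 13.02 against 13.24, 13.52 and 13.42 in wild type. At day 3 Sod2 read 12.86, 12.54 and 12.58 against 13.51, 13.52 and 13.39 in the knockout, and 12.85, 12.91 and 12.80 against 13.59, 13.69 and 13.70 in wild type. Only the knockout groups of day 14 overlapped. The change of -0.23 in the knockout at day 14 did not pass (adjusted p = 0.12). Sod2 fell by 0.41 in wild type at day 14 and by 0.82 and 0.80 at day 3 (adjusted p = 0.00666, 1.01e-05 and 8.74e-06).

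Cytosolic Sod1 read 13.10, 13.32 and 13.15 in denervated against 12.80, 12.83 and 12.74 in control knockout at day 14, and 12.86, 12.96 and 12.86 against 12.91, 13.20 and 12.97 in wild type. At day 3 Sod1 read 13.20, 12.78 and 13 against 13.14, 13.43 and 13.08 in the knockout, and 13.63, 13.54 and 13.37 against 13.02, 13.10 and 13.15 in wild type. It rose by 0.40 in the knockout at day 14 and by 0.42 in wild type at day 3, calls lost with the mean of its probes, and did not pass in the other two. The genotype interaction was 0.54 at day 14 and -0.65 at day 3 and did not pass (adjusted p = 0.0525 and 0.0771). In denervated muscle at day 3 Sod1 was 0.52 lower in knockout (adjusted p = 0.0196), while without the outlying arrays the difference was -0.31 and not called (adjusted p = 0.696).

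Extracellular Sod3 read 6.57, 6.72 and 6.65 in denervated against 6.41, 6.04 and 6.93 in control knockout at day 14, and 5.35, 5.90 and 5.90 against 6.74, 6.90 and 6.76 in wild type. The knockout samples overlapped and the wild type samples stood apart. Only 2 of 3 denervated wild type arrays detected Sod3 at day 14, so its values there are near background. It changed by 0.19 in the knockout (adjusted p = 0.642) and fell by 1.08 ± 0.28 in wild type (adjusted p = 0.00331), a difference of 1.27 ± 0.39 (adjusted p = 0.0387) that 12 of 21 alternatives lost. At day 3 Sod3 changed by 0.11 and 0.49, neither called, and in wild type the response differed between the days by -1.58 ± 0.39 (adjusted p = 0.0104), which held in all 21 alternatives. At day 14, 4 of 42 members were called in the genotype interaction (Gsta1, Gsta2, Gstm5 and Sod3), 2 in each direction, against a background of 12.5% (4.58% higher, 7.93% lower). With median centring 1 was higher and 2 lower, and with the authors' processed values 3 were higher and 1 lower. Without control wild type replicate 2 of day 14 limma called none, with 15 members at an unadjusted p under 0.05.

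Cat, catalase of peroxisomes, was near background and detected on 11 arrays. It read 5.72, 5.50 and 5.98 in denervated against 4.84, 4.86 and 5.61 in control knockout at day 14, and 6.86, 6.09 and 5.48 against 4.88, 4.85 and 5.03 in wild type. At day 3 Cat read 5.81, 6.02 and 5.91 against 5.09, 4.80 and 4.90 in the knockout, and 6.53, 6.39 and 6.35 against 5.26, 5.15 and 5.40 in wild type. Only the day 14 knockout groups overlapped. It rose at least 1.42-fold in wild type at day 14, at least 1.07-fold in the knockout at day 3 and at least 1.51-fold in wild type at day 3, and by 0.63 in the knockout at day 14 (adjusted p = 0.000329, 0.0031, 0.000696 and 0.0463). The last of these was lost in 9 of 15 alternatives, and the day 3 knockout change was 0.88 and not called without the outlying arrays (adjusted p = 0.104).

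**Figure D3:**
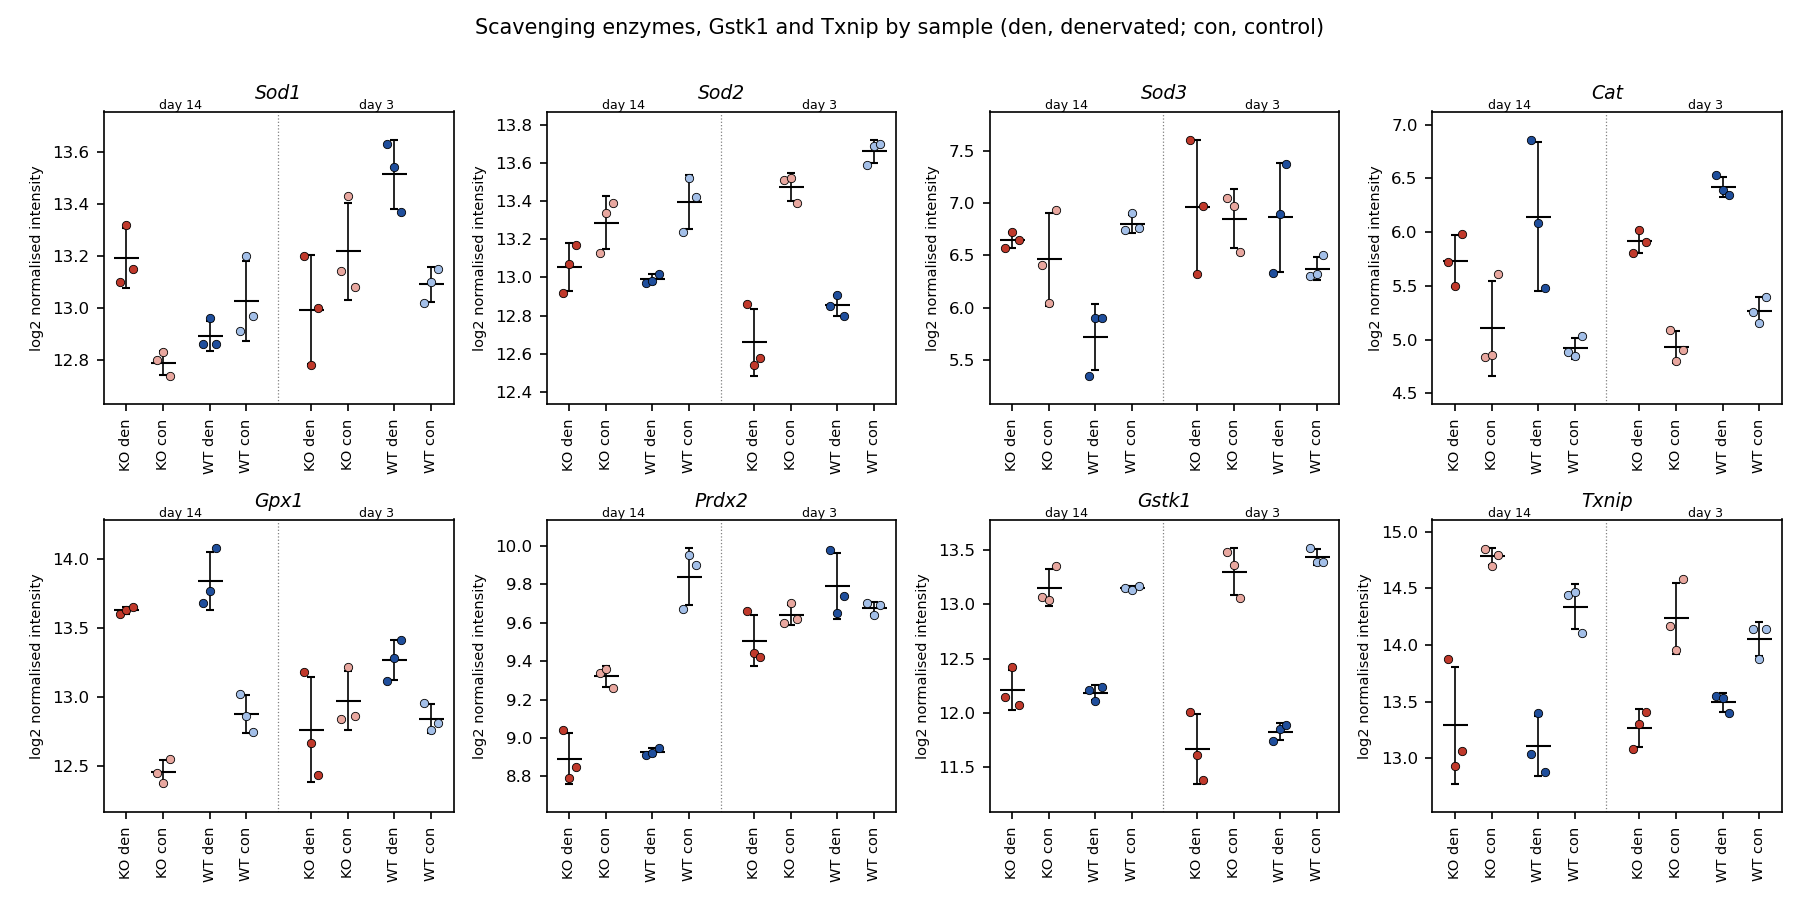
Log2 normalised intensity of 8 members in each sample (points, n = 3 per group), with the mean and SD as bars, for knockout (KO, red) and wild type (WT, blue), denervated (den, dark) left of control (con, light), at day 14 and day 3. Each panel has its own vertical scale that does not start at 0. Gstk1 and Txnip are lower after denervation in every pair, Gpx1 is higher in 3 pairs, and Sod3 is lower in denervated wild type at day 14, at 5.35 to 5.90.

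Hmox1, heme oxygenase, which degrades heme and is repressed by BACH1, was induced throughout. It read 9.42, 10.02 and 9.62 in denervated against 8.05, 8.06 and 7.86 in control knockout at day 14, and 8.97, 9.49 and 9.56 against 8.31, 8.42 and 8.36 in wild type. At day 3 Hmox1 read 10.67, 10.51 and 10.26 against 8.82, 9.07 and 8.46 in the knockout, and 10.44, 10.58 and 10.56 against 8.44, 8.65 and 8.84 in wild type. No groups overlapped. It rose by 1.70 and 0.98 at day 14 and by 1.70 and 1.88 at day 3 (knockout and wild type, SE 0.18, adjusted p of at most 0.000155), and every alternative kept these calls. In wild type the response was 0.91 smaller at day 14 than at day 3 (adjusted p = 0.021). Macrophages also express Hmox1, and of their 14 measured markers 12, 4, 3 and 14 rose in these comparisons. Their part in the rise of Hmox1 was not tested.

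Nqo1, the quinone reductase often used as a readout of NRF2, took a course of its own. It read 8.33, 8.57 and 8.26 in denervated against 9.27, 9.23 and 9.07 in control knockout at day 14, and 8.54, 8.26 and 8.34 against 10.23, 9.76 and 9.55 in wild type. At day 3 Nqo1 read 9.61, 9.28 and 9.59 against 8.81, 8.80 and 9.72 in the knockout, and 10.67, 10.50 and 10.50 against 9.95, 9.72 and 9.97 in wild type. Denervated samples were below controls at day 14 in both genotypes and above them at day 3 in wild type, with overlap in the knockout.

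Nqo1 fell at day 14 by 0.81 ± 0.20 in the knockout and 1.47 ± 0.20 in wild type (adjusted p = 0.00324 and 5.3e-06). At day 3 Nqo1 changed by 0.38 in the knockout (adjusted p = 0.149) and rose by 0.68 in wild type (adjusted p = 0.0115, or 0.0517 without control wild type replicate 2). Between the days the response differed by -1.19 ± 0.29 in the knockout (adjusted p = 0.00734, or -1.31 with an adjusted p of 0.0649 without the outlying arrays) and -2.14 ± 0.29 in wild type (adjusted p = 5.69e-05, called in all 21 alternatives). Nqo1 was also lower in knockout than in wild type without surgery, by 0.71 ± 0.14 over both days (adjusted p = 0.0108). That call did not hold in all 21 alternatives, and the day 3 control groups met at 9.72. In denervated muscle at day 3 Nqo1 was lower in knockout by 1.06 ± 0.20 (adjusted p = 0.00426). Without the outlying arrays that difference was -0.95 and not called.

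**Figure D4:**
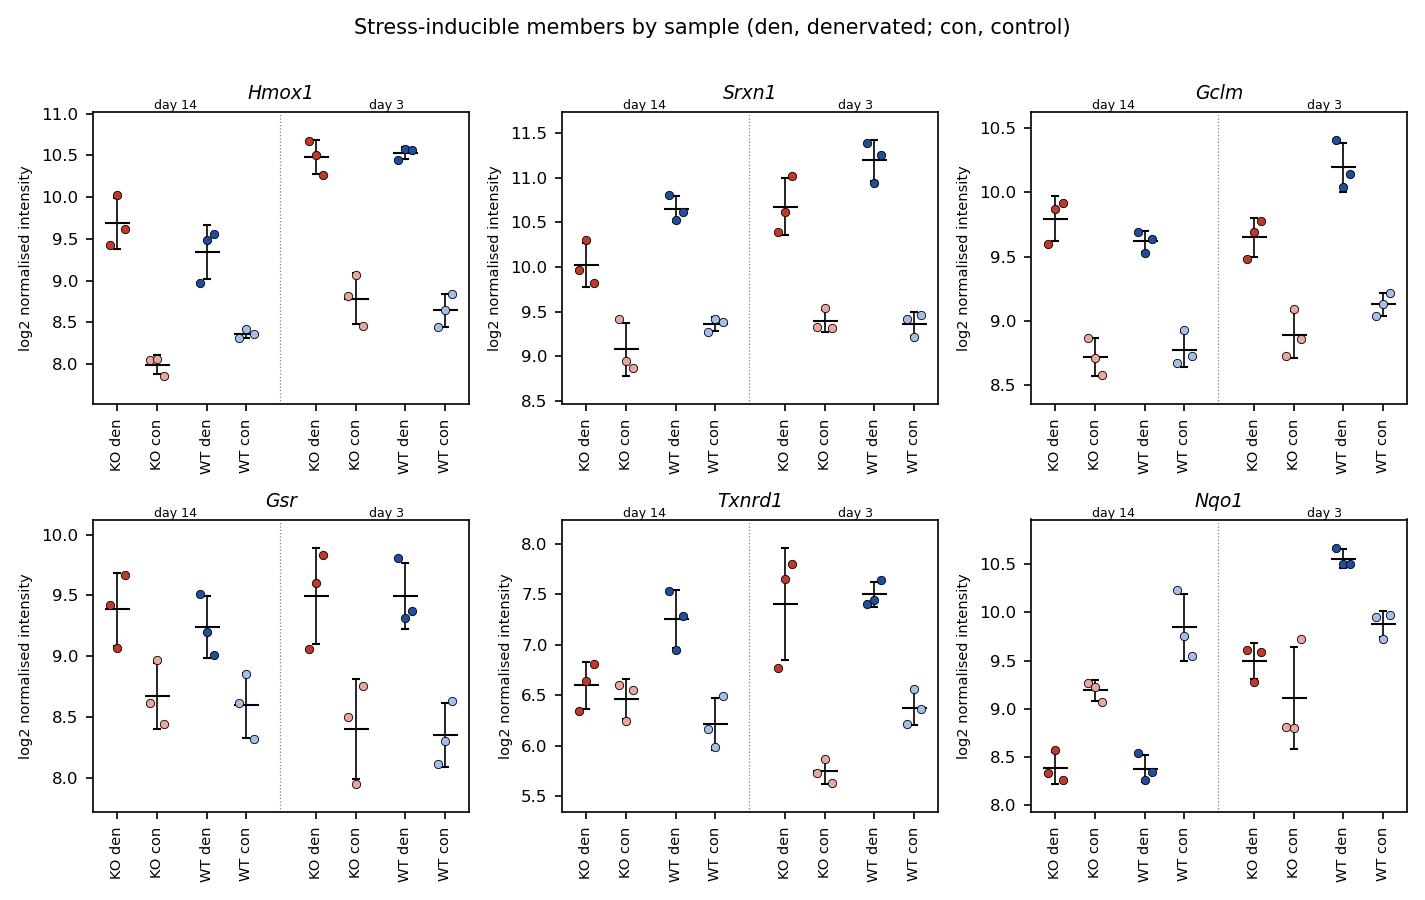
Log2 normalised intensity of 6 stress-inducible members in each sample (points, n = 3 per group), with the mean and SD as bars, for knockout (KO, red) and wild type (WT, blue), denervated (den, dark) left of control (con, light), at day 14 and day 3. Hmox1, Srxn1, Gclm and Gsr are higher after denervation in every pair without overlap, whereas Nqo1 is lower at day 14 in both genotypes.

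Between the genotypes in denervated muscle, 6 of 42 members were called at day 14, 1 higher and 5 lower in knockout, against a background of 6.92% (2.70% higher, 4.21% lower). At day 3, 7 were called, all lower in knockout, against 7.17% (3.78% and 3.38%), or 14 without denervated knockout replicate 1 and 4 without replicate 2. The day 14 set was Gsta1, Gsta2, Gsta4, Gstm1, Srxn1 and, higher, Sod3, whose 0.93 was lost in 11 of 15 alternatives, and with the authors' processed values 4 were lower and none higher. None of the 6 day 14 calls held in all 15 alternatives. The day 3 set was Gsta1, Gsta2, Gsta4, Gclm, Gstm6, Nqo1 and Sod1, of which Gsta1 and Gsta2 were also called without the outlying arrays, where the Gclm difference was -0.72 and not called (adjusted p = 0.181), against -0.55 with all arrays. In control muscle 2 members differed, both lower in knockout, against 3.30% (1.57% and 1.72%): Nqo1, as given above, and Gsto1, lower by 0.38 (adjusted p = 0.0353). Neither call held in all 21 alternatives, and with only the samples of the comparison limma called no member. Control Gsto1 read 11.96, 12.18 and 12.10 in knockout against 12.66, 12.59 and 12.23 in wild type at day 14, and 12.01, 11.93 and 12.01 against 12.38, 12.34 and 12.28 at day 3, without overlap at either day.

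The response differed between the days for 13 members in the knockout, 9 higher and 4 lower at day 14 than at day 3, against a background of 20.6% (9.12% and 11.5%), and for 12 in wild type, 3 higher and 9 lower, against 13.7% (7.46% and 6.20%). Nqo1, Gpx8, Prdx2 and Sod3 held in wild type under all 21 alternatives. With median centring the split was 1 and 13 in the knockout and none and 10 in wild type, where the median of all genes moved to -0.51 and -0.08. Without the outlying day 3 arrays the knockout count was 1, and the change for Gstm4 was 0.61 and for Gstt3 0.36 (adjusted p = 0.182 and 0.346). Control muscle itself differed between the days for 18 members, 5 higher and 13 lower at day 14, against 41.4% (23.5% and 17.9%); median centring, which moved all genes to 0.39, gave 23 higher and 1 lower, and the number of detected probes as a covariate left 1.

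Among the regulators, Nfe2l2 changed by 0.17 in the knockout and 0.22 in wild type at day 14 and did not pass (adjusted p = 0.535 and 0.397). At day 3 Nfe2l2 rose by 1.30 ± 0.19 and 0.97 ± 0.19 (adjusted p = 2.28e-05 and 0.000441), with denervated means of 9.02 against 7.72 in control knockout and 9.40 against 8.43 in control wild type. The knockout response was 1.13 smaller at day 14 than at day 3 (adjusted p = 0.00794, or a difference of -1.17 with an adjusted p of 0.0818 without the outlying arrays), and the wild type difference of -0.75 did not pass (adjusted p = 0.073). Keap1 rose by 0.52 in the knockout at day 14 and 0.31 in wild type at day 3, and Bach1 by 0.72 in the knockout at day 3, or 0.27 and not called without the outlying arrays (adjusted p = 0.472). The day 3 knockout rise of Nfe2l2 was 1.33 without them and still called (adjusted p = 0.00246).

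Other NRF2 axis genes and targets outside the family did not move as 1 group. Of 27 such genes 22 were measured; 6 rose and 4 fell in the knockout and 6 and 3 in wild type at day 14, and 5 and 3, and 6 and 2, at day 3, with list medians of 0.19, 0.22, 0.14 and 0.07. Of all genes 36.7% and 41.5% were called at day 14 (knockout and wild type) and 35.8% and 37.5% at day 3, shares against which this list and the next 3 are to be read. Sqstm1, an autophagy receptor that binds KEAP1, rose by 1.39 and 0.49 at day 14 and by 0.92 and 1.49 at day 3 (knockout and wild type). The aldehyde dehydrogenase Aldh3a1 rose by 2.03 and 2.89 at day 14, and its 0.22 and -0.19 at day 3 did not pass. The ferritin light chain Ftl1 rose in all 4, by 0.53 to 0.80. The carboxylesterase Ces1d fell in all 4, with changes of -2.68 and -3.45 at day 14 and -2.64 and -3.80 at day 3, and the epoxide hydrolase Ephx1 fell in all 4, with changes between -1.18 and -0.70.

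Of 36 further glutathione and thiol genes 30 were measured, with 2 higher and 8 lower in the knockout and 3 and 11 in wild type at day 14, and 1 and 8, and 3 and 13, at day 3. The other 20, 16, 21 and 14 did not pass. Of all genes 17.7% and 18.6% were lower at day 14 and 15.6% and 17.5% at day 3. The microsomal transferase Mgst3 fell in all 4, with changes of -2.43 and -2.51 at day 14 and -2.07 and -1.92 at day 3. Chac1, which breaks glutathione down, changed by -1.98 and -2.16 at day 14 and -1.27 and -3.09 at day 3, all called, with the day 3 knockout change at -1.66 and not called without the outlying arrays (adjusted p = 0.075). The methionine sulfoxide reductase Msrb1 fell in all 4, with changes of -0.69 and -1.29 at day 14 and -1.56 and -1.30 at day 3. Esd, S-formylglutathione hydrolase, rose in all 4, by 0.85 and 1.31, and 0.99 and 1.58.

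Gsr and the thioredoxin reductases draw on NADPH, and all 8 genes listed for its supply were measured. The list also holds cytosolic enzymes and enzymes that use NAD, so its counts are not a measure of mitochondrial NADPH supply. Idh2, the mitochondrial isocitrate dehydrogenase, fell in all 4, with changes of -2.44 and -2.30 at day 14 and -2.11 and -3.12 at day 3 (knockout and wild type). Mthfd2 rose by 0.94 and 1.45 at day 14 and 1.66 and 1.76 at day 3, and Me2, mitochondrial malic enzyme, by 0.76 and 1.30, and 0.84 and 0.88. Counts were 2 higher and 4 lower in the knockout at day 14 and 2 and 2 in each other comparison. Of 14 sources of superoxide and peroxide 8 were measured, with 3 higher and 1 lower in the knockout and 2 and 1 in wild type at day 14, and 2 and 2, and 5 and 1, at day 3. Aldehyde oxidase Aox1 rose by 1.13 and 1.94 at day 14 and by 1.54 and 0.81 at day 3. The NADPH oxidase Nox4 rose by 0.89 in wild type at day 14 and by 0.91 and 0.86 at day 3. The phagocyte oxidase subunit Cybb rose by 0.99 in the knockout at day 14 and 1.10 in wild type at day 3, where 12 and 14 of 14 macrophage markers rose. The part of macrophages in the Cybb change was not tested. Monoamine oxidase Maob fell in all 4, with changes between -1.58 and -0.97.

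Over the 8 group means, Gsta2 ranged over 3.18 log2 and the genes closest to it were the proteasome subunits Psmb4 and Psmb5, each at a Pearson coefficient of 0.977 across 8 means, Pelo at 0.975 and Agmat at 0.970. These means share arrays, normalization and the denervation contrast, and the values describe likeness only.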

How the data were processed

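RNA from 24 muscle samples in 8 groups of 3 was hybridised to 1-colour Illumina mouse bead arrays, 1 array per sample, and the comparisons were denervated against control, knockout against wild type, and their interactions with genotype and day. The authors deposited, per the file headers, an unnormalised probe intensity and a detection p-value for every probe and array, and a table of processed log2 values. BeadStudio 3.2.3 is named, per the submitters' processing notes. The background correction and normalization behind the authors' processed log2 values are not given in the sources used here.

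The deposited intensities were corrected for background, with the detection p-values standing in for control probes, quantile normalised and put on the log2 scale with an offset of 16 by neqc in limma 3.58.1 (R 4.3.3). Of 46632 probes 21997 had a detection p-value under 0.05 on at least 3 arrays, and the brightest named probe stood for each of 11317 genes. Symbols came from the platform annotation, under which 29976 probes had 1 symbol, 10 several and 16646 none. A linear model of 8 group means was fitted across all genes with eBayes (16 residual degrees of freedom), and p-values were adjusted by Benjamini-Hochberg within each of 12 contrasts. The script was tested on simulated data. Precision is set by the number of arrays, with a median SE of 0.19 for a difference between 2 groups and 0.268 for an interaction. For a probe undetected throughout a group, the fold is a bound against the lowest detected signal of each array.

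Sample values are given, in the comparisons concerned or some of them, for members called with a denervation change of at least 1 and groups apart, or called in a genotype or interaction contrast, and for Nqo1, Hmox1, Txnip, Sod1, Sod2, Sod3, Cat and Gpx1. Members, related lists and marker lists were chosen with earlier results of these data known. Alternatives covered the authors' processed values, median centring, no background correction, other filters, the mean of a gene's probes, a replicate block, the number of detected probes as a covariate, fewer samples in the fit, and leaving out arrays.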

Additional observations from a re-analysis of the deposited data

Results flagged for a closer look

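Members are given here because a test of the difference itself found their denervation response to differ between genotypes or between days, so that the value is a difference of 2 log2 changes. Explanations were not tested. The response in the knockout minus that in wild type was -1.43 for Gsta1, -1.18 for Gsta2, 0.61 for Gstm5 and 1.27 for Sod3 at day 14, and -2.31 for Gsta1 and -2.08 for Gsta2 at day 3.

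The response at day 14 minus that at day 3 differed for 13 members in the knockout. It was higher for Gpx1 (1.38), Gstt2 (1.13), Gstm6 (1.00), Gstk1 (0.69), Sod1 (0.63), Gstm4 (0.62), Gstt3 (0.62), Sod2 (0.58) and Gstm2 (0.52). It was lower for Txnl1 (-3.20 ± 0.89, not a fold, as no day 3 knockout control detected it), Txnrd1 (-1.53), Nqo1 (-1.19) and Prdx1 (-0.40). Of these, 1 was called without the day 3 denervated knockout replicates 2 and 3.

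In wild type 12 members differed between the days. Higher values at day 14 were those of Gstm2 (0.68), Gstk1 (0.64) and Gstm1 (0.49). Lower ones were those of Nqo1 (-2.14), Sod3 (-1.58), Gpx8 (-1.38), Prdx2 (-1.03), Gpx7 (-0.92), Hmox1 (-0.91), Gstp1 (-0.70), Sod1 (-0.56) and Prdx1 (-0.46). Control muscle also differed between the days, as described above.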

How the results depend on the processing

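Counts of called members changed by over 1.5 times under these alternatives, and the cause was not tested except where fewer samples were fitted. With the number of detected probes as a covariate, 10 were called after denervation in the knockout at day 3, 0 in the genotype interaction at day 3 (limma, 4 at an unadjusted p under 0.05) and 13 at day 14, 4 in the day interaction of the knockout, 13 between genotypes in denervated muscle at day 14 and 2 at day 3, 4 between genotypes in control muscle and 1 between days in control muscle. Without the day 3 denervated knockout replicates 2 and 3, which leaves that group 1 array assumed to vary like the other groups, there were 9 after denervation in the knockout at day 3, 0 in the genotype interaction at day 3, 1 in the day interaction of the knockout and 2 between genotypes in denervated muscle at day 3. With only the samples of the comparison there were 15 in the knockout at day 3, 7 in the genotype interaction at day 14, 6 in the day interaction of the knockout, 3 and 4 between genotypes in denervated muscle at day 14 and day 3, and 0 in control muscle (limma, 12 at an unadjusted p under 0.05). The authors' processed values gave 1 in the genotype interaction at day 3. Median centring gave 4, and no background correction 11, between genotypes in denervated muscle at day 3, and no background correction gave 6 in control muscle. No filter gave 2 and the stricter filter 8 in the genotype interaction at day 14, and the stricter filter 4 between genotypes in control muscle. The mean of a gene's probes gave 3 between genotypes in denervated muscle at day 14.

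Replicate numbers did not pair the samples: 1 of 36 same-numbered pairs of deviations correlated above 0.1 (range -0.287 to 0.388). With the replicate number as a block the counts were 15 and 25 at day 14 (knockout and wild type), 23 and 25 at day 3, 2 and 2 in the genotype interactions, 12 and 7 in the day interactions, 4 and 6 between genotypes in denervated muscle at day 14 and day 3, 1 in control muscle and 14 between days in control muscle. Slide as a block was not run, because the files used here give no slide.

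Leaving out 1 array at a time gave 11 to 14 in the knockout and 21 to 23 in wild type at day 14, 16 to 27 and 21 to 25 at day 3, 0 to 6 and 2 to 8 in the genotype interactions at day 14 and day 3, 8 to 17 and 6 to 10 in the day interactions, 2 to 4 and 4 to 14 between genotypes in denervated muscle at day 14 and day 3, 1 to 3 in control muscle and 11 to 21 between days in control muscle.

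Some single genes changed sign. Median centring gave 0.07 for Gpx7, 0.22 for Gstm4, 0.20 for Gstt3, 0.01 for Prdx3 and 0.10 for Txn2 in the knockout at day 3, and -0.09 for Gstm4 and -0.17 for Gstt3 in the day interaction of the knockout. Between days in control muscle it gave 0.22 for Gclm, 0.11 for Gpx7, 0.17 for Gstp1, 0.33 for Sod1, 0.33 for Sod2 and 0.18 for Txn2, while the covariate gave 0.01 for Gpx7 and 0.12 for Gpx8. The mean of a gene's probes gave 0.13 for Sod1, 0.12 for Txn2 and -0.42 for Txnrd2 there, -0.04 for Sod1 in the day interaction of the knockout and 0.23 for Gstm1 between genotypes in denervated muscle at day 14. Signal near background limits what can be said of Gsta1 and Cat, which were detected on 8 and 11 arrays. The same limit holds for Gsta2 and Gstm7 (13 arrays each), Gpx2 (16), Gss (17) and Gsta3 and Txnl1 (18 each). It holds in some groups for Txnrd1 (22) and Sod3 (23).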
